A study of Bos taurus with 7 samples.

Results

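The alpha and beta tubulins are the protein subunits of microtubules. They were read in the rumen epithelium of 7 Holstein calves through the array probes whose gene name is one of 10 listed symbols. Of these symbols 9 had a probe, 1 probe each, out of 14952 distinct gene names on the array. The alpha tubulins were TUBA1A, TUBA1B, TUBA1C, TUBA1D and TUBA4A, and the beta tubulins TUBB, TUBB2B, TUBB3 and TUBB6. No probe carries the name TUBB2A, which is not analysed here under its own name. The calves had been fed with forage (HAY, calves 9, 10 and 13, n = 3) or without it (CON, calves 8, 11, 12 and 14, n = 4), and the design names 3 weeks after weaning. The series as a whole concerns forage and calf starter, ruminal pH and the epithelium's adaptation around weaning, and each calf was measured on its own single-colour Agilent array. The family was put forward after TUBA1D had shown a large difference between the feeding groups, so the members count as selected on the HAY against CON difference of their signals, and these differences are given for all 9 probes as a description that supports nothing by itself.

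An alpha and a beta tubulin pair into a dimer, and the dimers stack into the hollow microtubules that carry transport within the cell, build the mitotic spindle and form the core of cilia. The isotypes are encoded by separate genes with nearly alike coding sequences and with their own patterns across tissues, and they differ most at their acidic tails. In stratified epithelia such as the rumen lining, dividing cells lie in the basal layers, and the cells above them rebuild their microtubules as they differentiate.

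A 60-base probe can bind the RNA of a paralogue, so the probe sequences come first. They are those of the deposited files, written 5′ to 3′. The probe of TUBA1D is given whole, and of the others a stretch of 30 bases. TUBA1D and TUBB2B are shown because their groups did not overlap, and TUBA4A because no other tubulin probe shared a longer run of bases with TUBA1D. Capitals mark the longest run shared with the TUBA1D probe, and in TUBA1D itself the run shared with TUBA4A.
TUBA1D: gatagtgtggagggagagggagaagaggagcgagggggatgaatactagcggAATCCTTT
TUBA4A, bases 31 to 60: atgtttattgcaaAATCCTTTcgaaataaa
TUBB2B, bases 1 to 30: acgtttGAGAtctttctgaactactgttgt

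The TUBA1D probe had little in common with the other tubulin probes. Its longest run shared with any of the 18 other tubulin probes on the array was 8 bases, and its highest ungapped identity with one of them was 48.6% over an overlap of at least 30 bases. Among all 15007 other probes of the array the longest run shared with it was 12 bases. Over the 36 pairs of the 9 probes, the longest shared run was 8 bases on the same strand and 9 bases against the reverse complement. These comparisons are between probes only. How well each probe would bind the full transcripts of the other tubulins was not analysed here.

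By the positions in the files, on UMD_3.1, the TUBA1D probe lies at chr2:107942427-107942485 on the plus strand, which is 59 bases of genome for a probe of 60. The TUBA4A probe lies 20637 bases away on the minus strand, at chr2:107921730-107921789. In the RefSeq gene table of ARS-UCD2.0, used here for names and neighbours only, TUBA4A and TUBA1D are adjacent genes, and TUBA3C and TUBA3D are older names of TUBA1D. The file itself describes the TUBA1D probe as alpha 3d.

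By their annotation, some probe names in the family are less certain than that of TUBA1D, whose own binding to transcripts was not tested either. The probe named TUBA1A lies on chromosome 5, only 214 bases from the TUBA1B probe. It covers 56 bases of genome for a probe of 60. In the RefSeq table TUBA1A and TUBA1B are separate genes with 1 other locus between them, and the accession of the TUBA1A probe, a cDNA clone, matched no RefSeq gene. The annotation of the TUBA1B probe names the transcripts of both TUBA1B and TUBA1C, the only 1 of the 7 tubulin probes with a RefSeq match to name more than 1 gene. Over the array 67 of 11683 such probes (0.573%) did so. The TUBB2B probe, at chr23:50357813-50357872, was made from a clone that the file describes as beta 2A, and TUBB2A is the gene next to TUBB2B. The signals of these 3 probes are reported under the names in the files, and which of the close paralogues each one read was not tested. The probes of TUBB, TUBB3, TUBB6 and TUBA1C lie on chromosomes 23, 18, 24 and 5. No exon or UTR annotation of UMD_3.1 was used.

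All 7 arrays lay on 1 slide and shared 1 scan time, and between 81.5 and 84.6% of the spots of an array were well above background. All 9 tubulin probes were well above background on all 7 arrays and none was saturated, so none depended on the filter for dim probes. Values are log2 signals over the 75th percentile of the calf's own array, so that 0 equals that percentile. Levels of different probes are not comparable, since each probe has its own brightness, and only differences between calves are read. In a tissue sample, fewer cells of a type and less RNA per cell cannot be told apart. The HAY arrays lay in row 1 of the slide and the CON arrays in row 2, so the row of the slide and the feeding group cannot be told apart.

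TUBA1D was higher in every HAY calf than in every CON calf. Its log2 signal was 0.32, 0.83 and -0.25 for HAY calves 9, 10 and 13, whereas CON calves 8, 11, 12 and 14 gave -1.91, -1.68, -2.71 and -2.40. The groups lay 1.43 log2 units apart at their nearest calves. The HAY mean was 0.30 ± 0.54 (SD, n = 3) and the CON mean -2.17 ± 0.47 (SD, n = 4), which puts HAY 5.55-fold above CON (2.47 log2 units, SE 0.33). On the linear scale of the scanner the signal was 2354, 3355 and 1838 intensity units in the HAY calves and 493, 583, 234 and 371 in the CON calves. The difference was 2.30 with normexp background correction, which shrinks differences of dim probes. It lay between 2.21 and 2.75 when each calf was left out in turn.

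None of the other 4 alpha tubulins separated the groups. TUBA1A, TUBA1B and TUBA1C are the broadly expressed alpha tubulins of dividing and migrating cells, and TUBA4A is an alpha tubulin known from platelets and nerve cells. The log2 signal of TUBA1A was 2.02, 2.30 and 3.14 for HAY calves 9, 10 and 13, and CON calves 8, 11, 12 and 14 gave 1.83, 1.69, 1.93 and 3.24. TUBA1B stood at 2.79, 3.29 and 4.07 in the HAY calves and at 2.60, 2.49, 2.85 and 4.16 in the CON calves, with the calves of each group in the same order. TUBA1C stood at 5.25, 5.02 and 5.82 in HAY and at 4.86, 4.94, 4.79 and 6.09 in CON. In all 3, HAY calf 13 and CON calf 14 were the highest calves, and CON calf 14 exceeded every HAY calf. The log2 differences between HAY and CON were 0.32 (SE 0.43) for TUBA1A, 0.36 (SE 0.46) for TUBA1B and 0.19 (SE 0.36) for TUBA1C. Each was smaller than its SE. Without HAY calf 13 the differences were -0.012, 0.014 and -0.034 for TUBA1A, TUBA1B and TUBA1C, and without CON calf 14 they were 0.67, 0.73 and 0.50.

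TUBA4A, the neighbour of TUBA1D on chromosome 2, came nearest to separating the groups among them. Its log2 signal was 6.86, 7.12 and 7.24 for HAY calves 9, 10 and 13, with 6.29, 6.45, 6.48 and 7.07 for CON calves 8, 11, 12 and 14. Only CON calf 14, which lay above HAY calf 9, made the groups overlap. The difference was 0.50 (SE 0.21), a 1.42-fold higher mean in HAY, against 5.55-fold for TUBA1D.

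**Figure D1:**
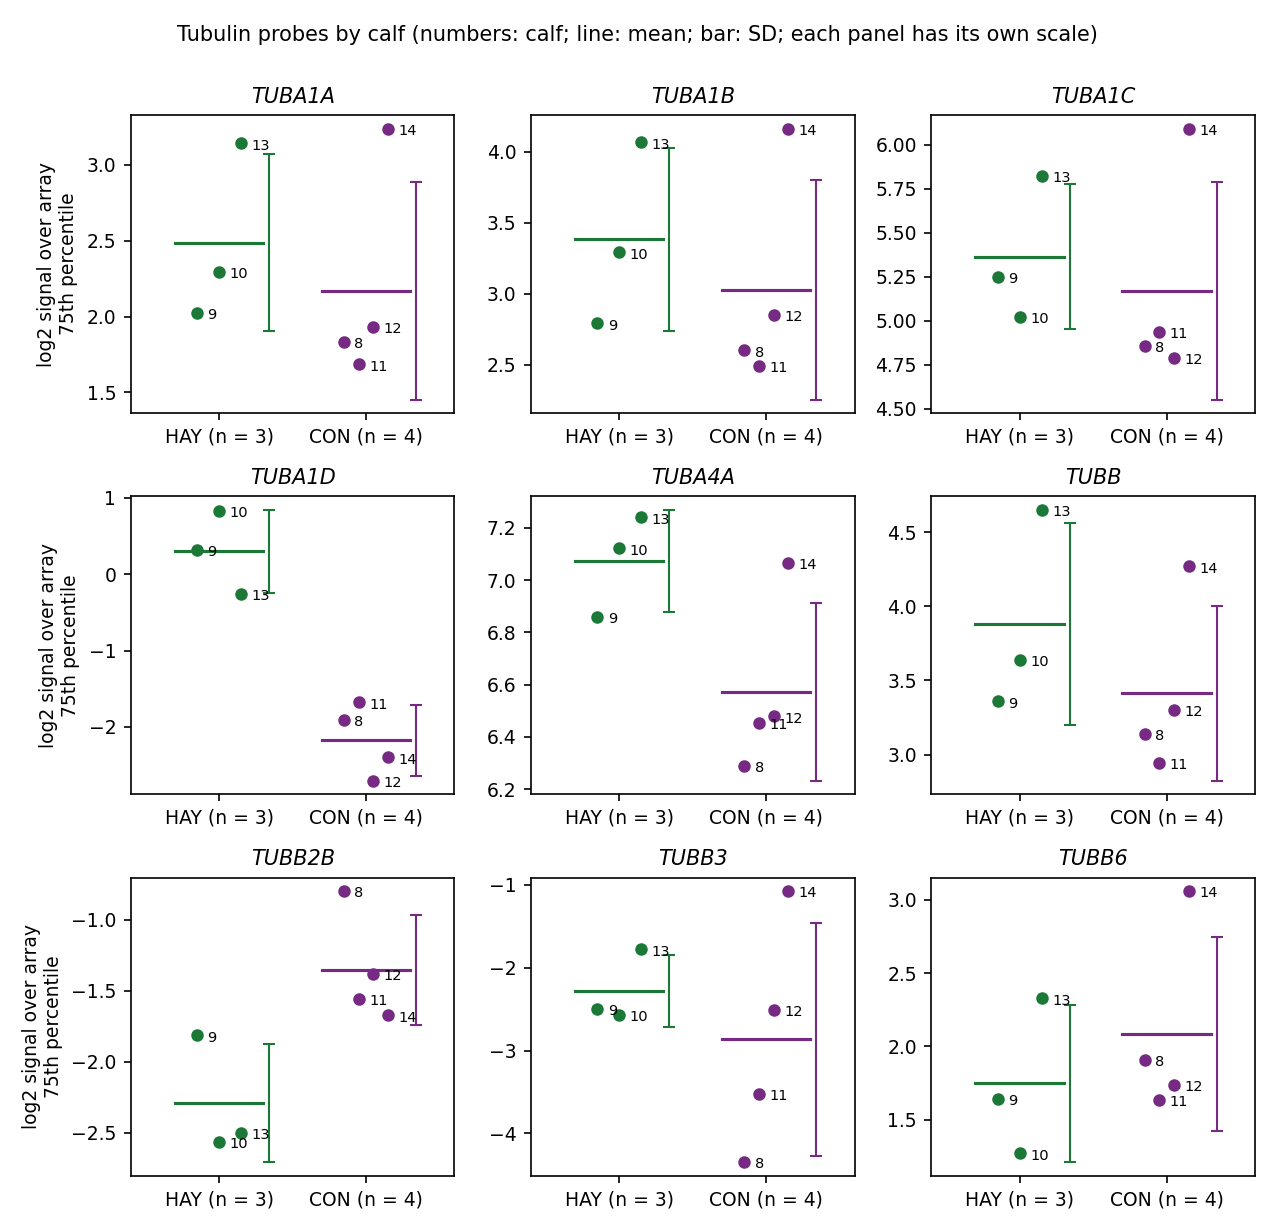
Log2 signal over the array's 75th percentile of the 9 tubulin probes, 1 panel a probe with its own scale, in HAY (green, n = 3) and CON (purple, n = 4). Points are calves with their numbers, horizontal lines group means and bars the SD. The groups are apart in TUBA1D and TUBB2B, while in TUBA1A, TUBA1B and TUBA1C HAY calf 13 and CON calf 14 lie above the other 5 calves.

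The beta tubulins went both ways. TUBB, the class I beta tubulin of most cells, had a log2 signal of 3.36, 3.64 and 4.65 for HAY calves 9, 10 and 13 and of 3.14, 2.94, 3.30 and 4.27 for CON calves 8, 11, 12 and 14. Again HAY calf 13 and CON calf 14 were the highest, and the difference was 0.47 (SE 0.41). It was 0.085 without HAY calf 13 and 0.75 without CON calf 14. TUBB6, the class V beta tubulin, stood at 1.64, 1.27 and 2.33 in HAY and at 1.91, 1.63, 1.74 and 3.06 in CON, with a difference of -0.34 (SE 0.40). CON calf 14 was the highest calf and the groups overlapped. The TUBB6 difference was -0.013 without CON calf 14 and -0.63 without HAY calf 13.

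TUBB2B is a class II beta tubulin best known from developing nervous tissue. In the opposite direction to TUBA1D, the probe of this name was lower in every HAY calf than in every CON calf. This probe was made from a clone described as beta 2A, and which of the paralogues it read was not tested. Its log2 signal was -1.81, -2.56 and -2.50 for HAY calves 9, 10 and 13, against -0.80, -1.56, -1.38 and -1.67 for CON calves 8, 11, 12 and 14. The nearest calves, HAY calf 9 and CON calf 14, were only 0.14 log2 units apart. The means were -2.29 ± 0.42 (SD, n = 3) and -1.35 ± 0.39 (SD, n = 4), so that HAY stood 1.92-fold below CON (-0.94 log2 units, SE 0.27). Marker genes of other tissue layers moved with the groups as well. All 8 smooth muscle markers, all 7 tested of 8 fibroblast markers and all 8 endothelial markers had lower means in HAY, as had 6 of the 10 leukocyte markers. The log2 of the summed smooth muscle signals ran from 3.55 to 4.74 in HAY and from 4.83 to 6.0 in CON, and that of the fibroblast signals from 3.69 to 5.85 and from 5.16 to 7.67. That of the endothelial signals ran from 0.26 to 1.97 in HAY and from 1.52 to 2.30 in CON, and that of the leukocyte signals from 4.16 to 4.55 and from 4.11 to 4.67. As a mean log2 deviation over the markers, the leukocyte list lay between -0.35 and -0.22 in HAY and between -0.10 and 0.52 in CON. The smooth muscle list lay between -1.17 and -0.22 in HAY and between 0.011 and 1.6 in CON. Neither list overlapped between the groups. The fibroblast list, at -1.56 to 0.20 in HAY and -0.27 to 1.62 in CON, did overlap. So did the endothelial list, at -1.28 to 0.28 in HAY and 0.08 to 0.61 in CON. No marker of these lists was below background on all arrays. Their part in the lower TUBB2B signal was not tested.

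TUBB3, the class III beta tubulin used as a marker of neurons, varied most within a group. Its log2 signal was -2.50, -2.57 and -1.78 for HAY calves 9, 10 and 13, and CON calves 8, 11, 12 and 14 gave -4.35, -3.52, -2.51 and -1.08. Both the lowest and the highest of the 7 calves were CON calves. The difference was 0.58 (SE 0.71), and 0.089 without CON calf 8. Of the 10 neuron markers, which include TUBB3, 7 were tested, and all 7 had higher means in HAY. The log2 of their summed signals ran from 1.0 to 1.42 in HAY and from 0.76 to 1.27 in CON. Their mean log2 deviation did not overlap, at 0.15 to 0.21 in HAY and -0.33 to 0.036 in CON. NEFL, NEFM and ELAVL4, which mark neurons, were not well above background on any array. The part of nerve cells in the TUBB3 signal was not tested.

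Taken as a family, 7 of the 9 tubulins had a higher mean in HAY and 2 a lower one, with a median difference of 0.36 against 0.032 over the 12604 probes tested. The groups did not overlap in 2 of the 9, 1 in each direction, beside 11.8% of all probes (6.55% with HAY higher, 5.29% with HAY lower). Since the family was chosen with this comparison known, these shares are a description. A limma adjusted p of 0.05 was passed by 1 of the 12604 probes (0.00793%), which is not a tubulin. Leaving out CON calf 14 brought that number over all probes to 21, HAY calf 9 to 7, CON calf 8 to 4 and HAY calf 13 to 2. Without CON calf 14 the groups did not overlap in 6 of the 9, TUBA1A, TUBA1C, TUBA1D, TUBA4A, TUBB and TUBB2B, and the share over all probes was 22.9%. The same 6 did not overlap without both HAY calf 13 and CON calf 14, a setting chosen after the data were seen, and 28.9% of all probes did not overlap then.

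**Figure D2:**
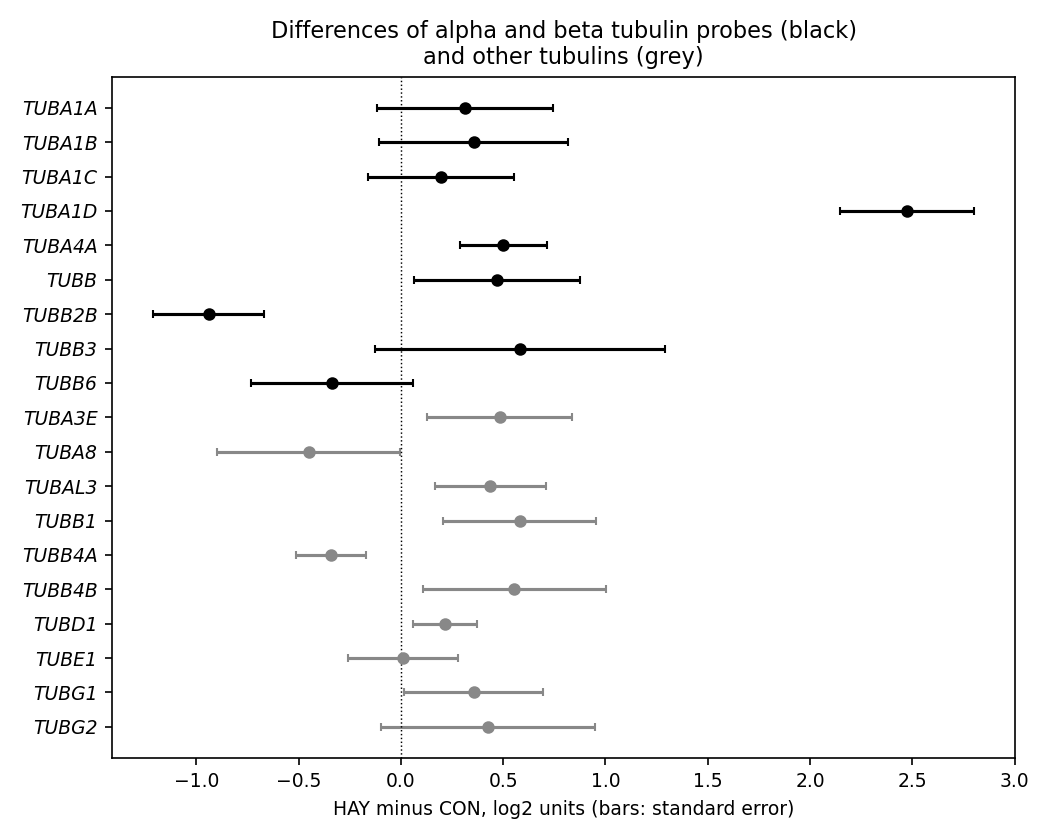
Log2 difference between HAY and CON for the 9 tubulin probes (black) and 10 other tubulin probes (grey), with bars of 1 standard error from limma. TUBA1D, at 2.47, lies to the right of the other 18 probes, which range from -0.94 for TUBB2B to 0.58.

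In most of the family the same 2 calves, 1 of each feeding group, were the highest. HAY calf 13 and CON calf 14 were the 2 highest calves in 6 of the 9 probes, namely TUBA1A, TUBA1B, TUBA1C, TUBB, TUBB3 and TUBB6. TUBA1D did not follow them. HAY calf 13 had the lowest TUBA1D signal of its group, and CON calf 14 the second lowest of all 7 calves. Both of these arrays lay in slide column 4, so what sets these calves apart and the slide column cannot be told apart. Within slide columns 2, 3 and 4, each holding 1 calf of either group, TUBA1D was higher in HAY by 2.0, 3.54 and 2.15 log2 units, and TUBB2B differed by -0.26, -1.18 and -0.83. With the column as a block, which takes CON calf 8 out of the comparison, TUBA1D differed by 2.56, TUBB2B by -0.75 and TUBB3 by 0.089.

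The relations between tubulins were not among the planned comparisons. They were computed over the 7 calves for the 7 probes other than TUBA1D and TUBB2B, which separate the groups, in 21 pairs with 2-sided tests. The closest pair was TUBA1A with TUBA1B, the probes 214 bases apart, with Pearson r = 0.994 (adjusted p = 0.00833, exact permutation p = 0.000397) and with Spearman's rho at 0.964 (adjusted p = 0.0292, exact permutation p = 0.00278). It kept r = 0.971 without HAY calf 13 and CON calf 14, the calves farthest from the median. Whether the probes named TUBA1A and TUBA1B read the same transcript was not tested. The relations of TUBB with them may therefore not be separate results. TUBB, the beta partner, followed both probes. With TUBA1A it had r = 0.974 (adjusted p = 0.0111, exact permutation p = 0.00159) and a rho of 0.964 (exact permutation p = 0.00278, adjusted p = 0.0292), and r = 0.992 without these 2 calves. With TUBA1B it had r = 0.972 (adjusted p = 0.0111, exact permutation p = 0.00139) and a rho of 0.929 (exact permutation p = 0.00675, adjusted p = 0.0354), and r = 0.967 without them. After centring within the feeding groups these 3 relations were 0.994, 0.982 and 0.978.

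TUBA4A with TUBB had r = 0.847 (adjusted p = 0.0390, exact permutation p = 0.0119). Their rho was 0.929 (exact permutation p = 0.00675, adjusted p = 0.0354). Without HAY calf 13 and CON calf 14, the r of TUBA4A was 0.845 with TUBB, 0.887 with TUBA1A and 0.843 with TUBA1B. It was 0.664 with TUBA1C and 0.721 with TUBB3. Some other pairs rested on those 2 calves. TUBA1C with TUBA1B had r = 0.908 (adjusted p = 0.0390, exact permutation p = 0.0147) and a rho of 0.679 (exact permutation p = 0.110, adjusted p = 0.153), and r was 0.212 without HAY calf 13 and CON calf 14. TUBA1C with TUBB6 had r = 0.846 (adjusted p = 0.0390, exact permutation p = 0.0189) and a rho of 0.429 (exact permutation p = 0.354, adjusted p = 0.371), and r was -0.399 without them. Without these 2 calves the r of TUBB6 was negative with every other probe compared, down to -0.900 with TUBA4A. Over the 21 pairs the adjusted p of Pearson's r was below 0.05 in 15 and that of Spearman's rho in 4. Leaving out the 2 calves farthest from the median of the pair's first-listed probe, r was at least 0.8 in 5. These were not HAY calf 13 and CON calf 14 in every pair.

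Markers of dividing cells were high in the same calves. The mean log2 deviation of 8 proliferation markers, such as AURKA and CDK1, was 1.34 in HAY calf 13 and 1.91 in CON calf 14, and between -1.47 and -0.06 in the other 5 calves. Of the 10 listed markers 8 had a probe, all 8 were well above background on all arrays, and the log2 of their summed signals ran from 2.02 to 3.93 in HAY and from 1.56 to 4.38 in CON. The plan was not to test tubulins against these markers, so the relations with this score are an addition to it. Over 7 relations with this score, r was 0.924 for TUBA1C (exact permutation p = 0.00635, adjusted p = 0.0271) with rho = 0.821 (exact permutation p = 0.0341, adjusted p = 0.0928). For TUBB6 r was 0.888 (exact permutation p = 0.00774, adjusted p = 0.0271) with rho = 0.75 (exact permutation p = 0.0663, adjusted p = 0.0928). Over the 7 relations the adjusted p was below 0.05 in 5 for Pearson's r and in 0 for Spearman's rho. Without HAY calf 13 and CON calf 14 r was 0.378 for TUBA1C and 0.333 for TUBB6. It was no more than 0.378 for any of the 7 tubulins, so that the relation and the p-values of r rest on these calves.

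**Figure D3:**
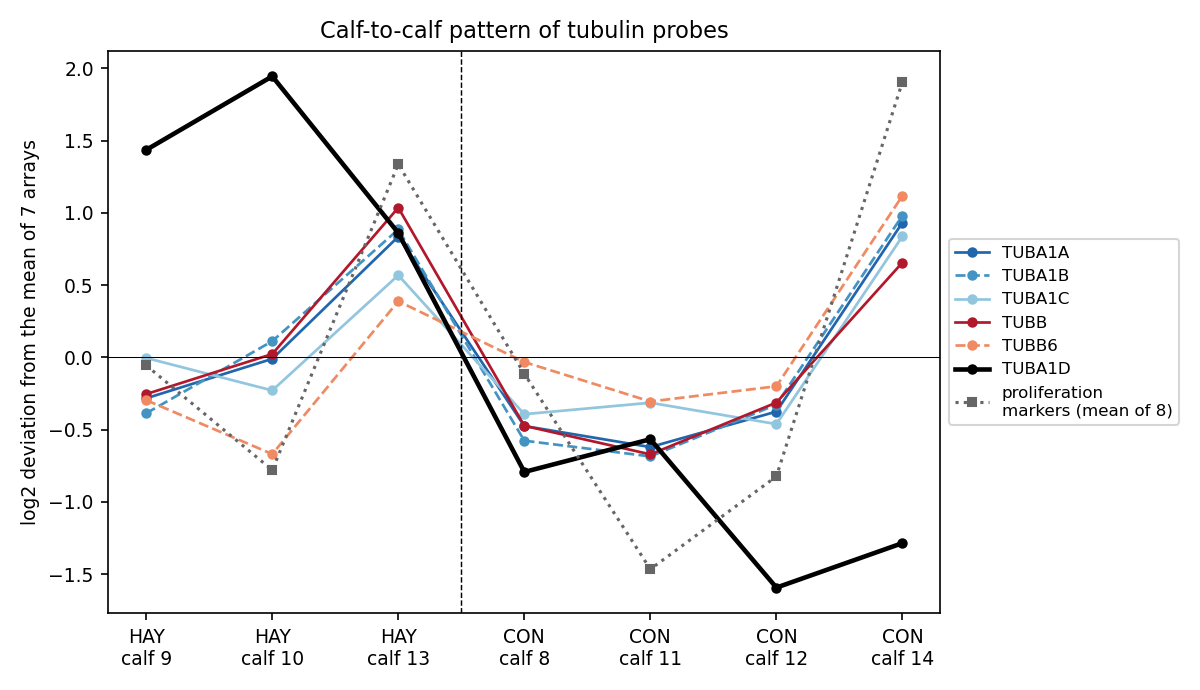
Log2 deviation of each calf from the mean of the 7 arrays for 6 tubulin probes and for the mean of 8 proliferation markers (grey squares), with HAY calves left and CON calves right of the dashed line. Lines only join the points of 1 probe. TUBA1A, TUBA1B, TUBA1C, TUBB and TUBB6 peak with the proliferation markers in HAY calf 13 and CON calf 14, whereas TUBA1D (black) is high in the 3 HAY calves and low in the 4 CON calves.

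The 5 genes whose log2 signal was most like that of TUBA1D over the 7 arrays, by Pearson r, were TBX5 (r = 0.985), IMPDH1 (r = 0.969), the transcript ENSBTAT00000052535 (r = 0.965), MCL1 (r = 0.965) and LAPTM4A (r = 0.963). TBX5 encodes a T-box transcription factor, IMPDH1 an enzyme of guanine nucleotide synthesis, MCL1 an inhibitor of apoptosis and LAPTM4A a lysosomal membrane protein. Their differences between HAY and CON were smaller than that of TUBA1D, at 0.20, 0.89, 0.23, 0.26 and 0.34 log2 units. Since the feeding groups lie apart in TUBA1D, these values are a description of likeness over 7 arrays, chosen as the highest of all probes tested, and they mix the difference between groups with the order of the calves. After centring each group, r was 0.939, 0.867, 0.821, 0.782 and 0.864. By this centred r the 5 genes ranked only 39, 214, 337, 519 and 219 among the probes tested. The highest r was then that of DSC1, a desmosomal cadherin, at 0.984. Of the other tubulins, r with TUBA1D ran from -0.743 for TUBB2B to 0.587 for TUBA4A.

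TUBA3C and TUBA3D, older names of TUBA1D, are known in other mammals as alpha tubulins of the testis, and germ cell and cilium markers were set beside it. Of the 9 germ cell markers 5 were tested, all 5 with higher means in HAY, and PRM1, DDX4 and TEKT5 were not well above background on any array. The log2 of the summed signals of the 5 ran from 0.39 to 1.77 in HAY and from 0.18 to 0.79 in CON. Of the 9 markers of ciliated cells 7 had a probe and 3 were tested, all 3 with lower means in HAY, and CCDC39, DNAI2 and RSPH1 were not well above background on any array. The part of such cells in the TUBA1D signal was not tested. As a check of the tissue, 9 of the 10 keratinocyte markers on the array were well above background on all 7 arrays. The other, KRT4, was so on 0 of the 3 HAY and all 4 CON arrays. It differed by -2.32 (SE 0.37, limma adjusted p = 0.163), without overlap between groups. Of the 10 keratinocyte markers, 7 had a higher and 3 a lower mean in HAY.

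The 10 further tubulins on the array, among them the gamma tubulins that seed microtubules and the beta tubulins TUBB1, TUBB4A and TUBB4B, did not separate the groups in any case. None passed with limma over all probes and none had an unadjusted p under 0.05, where 13.9% of all probes did (6.78% higher in HAY, 7.16% lower). Of these, 8 had a higher and 2 a lower mean in HAY, with a median difference of 0.39. The median was 0.13 without HAY calf 13 and 0.62 without CON calf 14. TUBB4A had the smallest p, with a difference of -0.34 (SE 0.17, limma adjusted p = 0.409), followed by TUBAL3 at 0.44 (SE 0.27, adjusted p = 0.504), TUBB1, the beta tubulin of platelets, at 0.58 (SE 0.37, adjusted p = 0.515) and TUBD1, delta tubulin of the centriole, at 0.21 (SE 0.15, adjusted p = 0.565). TUBA3E, whose annotation also names TUBA8, differed by 0.48 (SE 0.35). The probes of TUBB1 and TUBB4B shared a run of 14 bases, the longest of any pair among the 19 tubulin probes. Their ungapped identity was 83.7% over 43 bases, and which gene each of them read was not tested.

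The proteins that fold tubulin showed small differences. New alpha and beta tubulin passes through prefoldin and the chaperonin CCT, and then through the tubulin cofactors that assemble the dimer. Of the 24 folding genes, all tested, 8 had a higher and 16 a lower mean in HAY, with a median of -0.075, which was 0.0069 without CON calf 14. None passed with limma over all probes and none had an unadjusted p under 0.05. TBCB, the cofactor that binds alpha tubulin, was higher in every HAY calf than in every CON calf, at 0.35 (SE 0.16, adjusted p = 0.370), and so was the chaperonin subunit CCT3, at 0.24 (SE 0.14, adjusted p = 0.474). The prefoldin subunit PFDN5 differed by 0.27 (SE 0.14, adjusted p = 0.435) and ARL2, a small GTPase that regulates the cofactors, by -0.29 (SE 0.16, adjusted p = 0.442). The groups did not overlap in 2 of the 24, beside 11.8% of all probes.

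Enzymes that modify tubulin and complexes that seed microtubules showed no calls with limma either. Of 18 tested modification genes 11 had a higher and 7 a lower mean in HAY, with a median of 0.12, and none had an unadjusted p under 0.05. The median stood at 0.063 if HAY calf 13 was dropped, at 0.20 if HAY calf 9 was, and at -0.037 with normexp. TTLL11, a polyglutamylase, differed by 0.56 (SE 0.25, adjusted p = 0.369), VASH1, which removes the terminal tyrosine of alpha tubulin, by -0.74 (SE 0.37, adjusted p = 0.415), TPGS2, a subunit of the polyglutamylase complex, by -0.71 (SE 0.37, adjusted p = 0.428) and the acetyltransferase ATAT1 by -0.44 (SE 0.26, adjusted p = 0.474). With normexp these 4 differences were 0.18, -0.33, -0.36 and -0.29. Of 17 tested genes of the gamma-tubulin ring and of nucleation 11 were higher and 6 lower, with a median of 0.073 and none at an unadjusted p under 0.05. That median stood at 0.022 if HAY calf 13 was dropped and at 0.12 if HAY calf 10 was. The augmin subunit HAUS7 differed by 0.66 (SE 0.30, adjusted p = 0.374), TUBGCP3 by 0.47 (SE 0.31, adjusted p = 0.518; 0.17 with normexp), HAUS4 by 0.34 (SE 0.23, adjusted p = 0.544) and HAUS2 by -0.26 (SE 0.19, adjusted p = 0.573).

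Genes that stabilise, bind or destabilise microtubules held 3 of 34 tested members at an unadjusted p under 0.05, all higher in HAY, beside 6.78% of all probes in that direction. None passed with limma over all probes. TPPP, which promotes tubulin polymerisation, differed by 1.12 (SE 0.38, adjusted p = 0.290) and was well above background on 1 of the 4 CON arrays. With normexp it differed by 0.12 (adjusted p = 0.744), and over the alternatives its adjusted p ran from 0.0996 to 0.744. STMN4, a stathmin, which binds free tubulin dimers, differed by 0.62 (SE 0.21, adjusted p = 0.291) without overlap between groups. CLASP1 and MAPRE3, which bind growing microtubule ends, differed by 0.40 (SE 0.17, adjusted p = 0.357) and 0.44 (SE 0.20, adjusted p = 0.387), both without overlap. The groups did not overlap in 3 of the 34, all with HAY higher, beside 11.8% of all probes (6.55% with HAY higher). Of the 34 genes 23 had a higher and 11 a lower mean in HAY, with a median of 0.13, which was 0.056 without CON calf 12 and 0.23 without CON calf 14.

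**Figure D4:**
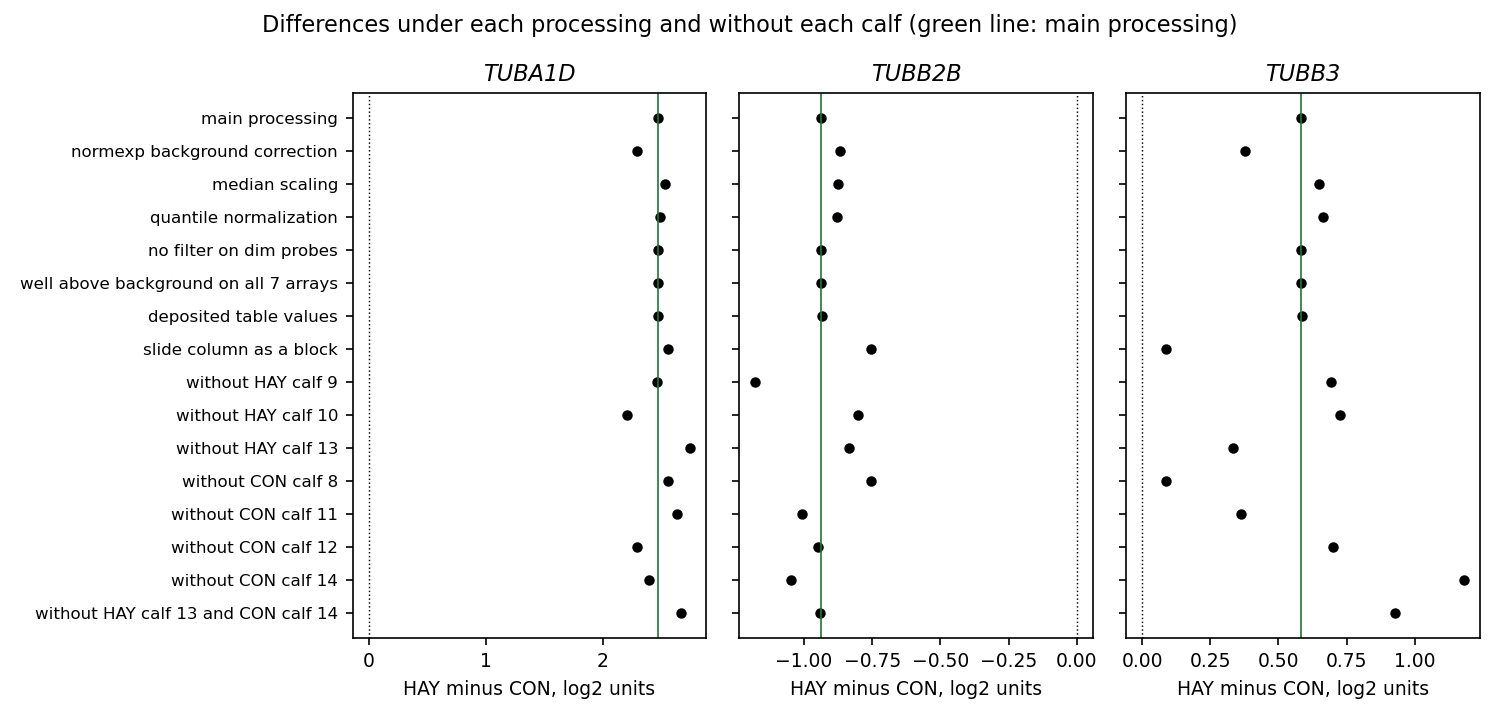
Log2 difference between HAY and CON of TUBA1D, TUBB2B and TUBB3 under each processing and without each calf, with the main value as a green line and 0 as a dotted line. TUBA1D stays between 2.21 and 2.75 and TUBB2B between -1.18 and -0.75, while TUBB3 moves between 0.089 and 1.18.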

How the data were processed

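Total RNA (500 ng) of the rumen epithelium was labelled with cyanine 3, per the labels' protocols. Per the file headers, the deposited scanner files give spot intensity with background subtracted and trends removed array by array, unscaled between arrays. The software was Agilent Feature Extraction 9.5, per the submitters' processing notes. The deposited table of all samples gives values that follow the log2 of these signals within each array (Pearson r at least 0.9999998). A constant taken off each array leaves this r unchanged, so r does not show whether the constant was the 75th percentile. The medians of its columns were -3.14, -3.16 and -3.23 for HAY calves 9, 10 and 13, and -3.11, -3.11, -3.11 and -3.13 for CON calves 8, 11, 12 and 14.

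Control and outlier spots were left out, the log2 values of repeated spots were averaged, and each array's 75th percentile was then taken off. The 12604 probes well above background on 3 or more of the 7 arrays were compared with limma 3.58.1 in R 4.3.3 (lmFit and eBayes), p-values being adjusted over all of them by Benjamini-Hochberg, after a test on simulated data. Members and lists were chosen with earlier results of these data known. From each related list the 4 genes of smallest p are named, and the 5 probes most like TUBA1D. Each calf is 1 replicate, and the number of arrays limits the precision. Alternatives were the background correction, the scaling, the filter, the deposited table, the slide column as a block and leaving out each calf.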

Additional observations from a re-analysis of the deposited data

Results flagged for a closer look

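In 29 genes, the 9 tubulins and 20 named related genes, the CON group of 4 was searched for a calf far from the others, a search that flags about 1 group in 20 by chance. CON calf 14 stood apart in 3 of them. TUBA1A was at 3.24 log2 units in this calf, against 1.69 to 1.93 in the other 3 CON calves. TUBA1C was at 6.09 against 4.79 to 4.94. HAUS7 was at -1.92 against -2.49 to -2.41.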

How the results depend on the processing

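The groups of TUBA1D and of TUBB2B did not overlap with normexp, median scaling, quantile normalization or the deposited table. The other alternatives (the filters, the block and leaving out a calf) cannot make groups overlap and say nothing here. The sign of all 9 tubulin differences was that of the main value with normexp, median scaling, quantile normalization and the deposited table. The number of probes past an adjusted limma p of 0.05 was 4 with quantile normalization and 2 with a block for the slide column, and 1 to 21 when each calf was left out. Tubulins without overlap numbered 2 to 6 when each calf was left out, where the share over all probes ran from 14.4 to 31.0%, and 6 without HAY calf 13 and CON calf 14 (28.9% of all probes), a setting chosen after the data were seen. The median of the modification list was -0.037 with normexp, and that of the microtubule stability list 0.19 with median scaling and 0.056 to 0.23 when each calf was left out. The cause of these moves was not tested. None of the 279 repeated tests of related genes passed. The mean over several probes of a gene was not run, since each tubulin had 1 probe. No paired analysis was possible because the calf numbers are not shared between the groups, so a replicate number could not serve as a block. The slide column, fitted as a block, groups positions on the slide. Depth is not at issue for the tubulins, all well above background, but 3 against 4 arrays limit what can be told apart.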
